A study of Mus musculus with 6 samples.

Results

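Cytosolic ribosomal protein genes were examined in cells of mouse fetal liver sorted through a gate named R1, with and without the -77 element, an enhancer upstream of Gata2. The genes were taken from the deposited gene table by symbol: rows named Rpl or Rps followed by a digit, and Rplp0, Rplp1, Rplp2 and Rpsa, leaving out the Rps6k kinases and rows whose names hold -ps or -rs, which mark pseudogenes and related sequences. This gave 84 of the 19436 genes in the table, 51 named for the large subunit and 33 for the small subunit. RNA came from C57BL/6 embryos at E14.5. The gate took Ter119-negative cells (Ter119 appears on the surface as red cells mature) with a medium level of CD71, the receptor that takes up transferrin-bound iron. The labels call the cells erythroid precursors, but in the -77-/- libraries erythroid markers were low and monocyte and macrophage markers high (values below), so they are called R1 cells here. The genotypes were -77-/-, in which the element is lost from both alleles, with 3 libraries, and wild type (-77+/+), with 3 libraries. The labels named no drug, transgene or further allele in either genotype. Nothing in the labels said that the libraries came from separate embryos, so the tests read the spread among these 6 libraries. Wild type library 2 had high Xist and libraries 1 and 3 did not (values below), so the wild type libraries were not all from 1 embryo; for the -77-/- libraries, the spread may be technical.

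A ribosome is built from ribosomal RNAs and the large and small subunit proteins, most of them encoded by a single active gene that has many inactive retrocopies elsewhere in the genome. The mRNAs of these proteins begin with a terminal oligopyrimidine (TOP) motif, a C followed by a run of C and T bases at the very start of the transcript, through which mTOR signalling and the protein LARP1 control their translation and stability as a group. In people, loss of a single allele of one of several of these genes causes Diamond-Blackfan anaemia, a failure of red cell precursors, and 2 large subunit proteins, RPL5 and RPL11, bind MDM2 and stabilise p53 when they are not built into ribosomes.

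Start windows are shown for 6 genes, 5 with a run of C and T at the start and 1 without, because the TOP motif is the sequence that the group is known for. Each line gives 15 bases before the annotated start of transcription and 15 bases from it, 5′ to 3′, on the gene's own strand. Capitals mark the longest unbroken run of C and T. The sequences and positions are from RefSeq on GRCm38.p6, not from the mm9 build that the submitters' processing notes name.
Rpl27a (chr7:109519180-109519209, plus strand): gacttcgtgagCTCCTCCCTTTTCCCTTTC
Rpl35 (chr2:39005117-39005146, minus strand): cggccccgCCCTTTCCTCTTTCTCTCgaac
Rps18 (chr17:33955651-33955680, minus strand): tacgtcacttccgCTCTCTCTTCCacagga
Rps10 (chr17:27635230-27635259, minus strand): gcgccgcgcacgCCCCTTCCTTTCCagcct
Rps6 (chr4:86857353-86857382, minus strand): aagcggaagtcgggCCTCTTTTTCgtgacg
Rps15 (chr10:80292416-80292445, plus strand): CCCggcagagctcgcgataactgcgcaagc
Rpl27a, Rpl35, Rps18, Rps10 and Rps6 had runs of 19, 18, 11, 13 and 10 bases, and Rps15 is given as one whose longest run was 3 bases. A window was found for 62 of the 84 genes, and 26 of them (41.9%) held a run of C and T of at least 8 bases, read on the gene's strand only. Among all 27025 genes with such a window the share was 13.9%. Genes without one included Rpl3, Rpl7, Rpl8, Rpl17, Rpl21, Rpl23a, Rpl29, Rpl30, Rpl32, Rpl36, Rplp1, Rps3a, Rps4y2, Rps14, Rps20, Rps27a and Rps29. A run was counted anywhere in the window, and the longest was taken where a gene had several windows. Some of the counted runs missed the annotated start. That of Rpl4 lay wholly before it and that of Rpl39 wholly after it. A run is thus a match of letters near an annotated start, which need not be the start used in these cells.

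Values in the table were counts divided by 1 size factor per library, called normalised values here. The 6 libraries held 16516338 to 20468899 reads of 50 nt. The element's neighbour Gata2 had 74.2, 26.2 and 34.2 in the -77-/- libraries, against 128, 87.8 and 61.5 in wild type, a log2 fold change of -1.10 ± 0.60 with an adjusted p of 0.183. The genotypes also differed in markers of cell types. Of 12 erythroid markers, 11 were lower in -77-/- and their summed value was 3206 to 7736 in -77-/- libraries, against 44638 to 48472 in wild type. Klf1, a master regulator of red cell genes, had 117, 17.5 and 21.3 in the -77-/- libraries, against 1598, 1569.6 and 1744 in wild type, so this defining erythroid transcript was far lower in -77-/-. Of 10 monocyte and macrophage markers, 10 were higher, with sums of 28290 to 38902 in -77-/- libraries and 1541 to 2763 in wild type. Granulocyte marker sums were 43003 to 47051 in -77-/- libraries and 13901 to 24197 in wild type, with 3 of 10 markers higher in -77-/- and 4 lower. Mpo, the peroxidase of early granulocytes and monocytes, made up most of these sums; without it they were 5970 to 6295 in -77-/- libraries and 5371 to 9448 in wild type, which overlapped. Of 8 stem and early progenitor markers tested, 6 were higher in -77-/- and 1 lower, with sums of 12065 to 12243 in -77-/- libraries and 4921 to 5696 in wild type. Cd34 and Flt3 were among the higher, with log2 fold changes of 4.61 and 3.47. Kit was the lower one (-1.25), and Hlf did not pass (0.11, adjusted p = 0.88). Of 7 lymphoid markers tested, 6 were higher (2 without -77-/- library 1), with sums of 1863 to 3307 in -77-/- libraries and 373 to 798 in wild type. So the lists of monocyte, of stem and early progenitor, and of lymphoid markers were mostly higher in the -77-/- libraries, and erythroid markers lower. Megakaryocyte sums overlapped, at 279 to 624 in -77-/- libraries and 461 to 708 in wild type. Mast cell and eosinophil sums were 82.6 to 90.5 in -77-/- libraries and 655 to 1916 in wild type, with 2 of 5 markers lower, the eosinophil granule genes Prg2 and Epx, and 3 not passing. Hepatocyte sums were 84.4 to 884 in -77-/- libraries and 48.9 to 207 in wild type. Gp1bb, a megakaryocyte marker, was at 0 in every -77-/- library and in 2 of 3 wild type libraries. Apoa2, a hepatocyte marker, was at 0 in 1 of 3 -77-/- libraries and in every wild type library. Each was thus at 0 in libraries of both genotypes. The part of these markers in the ribosomal protein values was not tested, and in bulk RNA fewer cells of a type and less RNA per cell cannot be told apart.

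Ribosomal protein genes were lower in -77-/- cells in 51 of the 82 rows tested and higher in 0. Over all 15821 genes tested, 15.2% were lower and 16.9% were higher. The test was limma on log2(value + 1) with Benjamini-Hochberg adjustment over all genes at 0.05, for genes with a mean of at least 10 in the higher genotype. Fold changes are -77-/- over wild type on this scale. The median log2 fold change of the 82 rows was -0.53, with quartiles of -0.76 and -0.37 and a range of -1.93 to 0.35, beside a median of 0.10 over all genes tested. The fold change was negative in 79 rows, and in 47 all -77-/- libraries lay below all wild type libraries, which 21.4% of all genes did. In 0 rows did all -77-/- libraries lie above all wild type libraries, as they did in 25.0% of all genes. Abundant genes in general were lower more often: of 3520 genes with a mean of at least 1000, 34.2% were lower, with a median of -0.17, whereas 46 of the 67 ribosomal protein genes at that level were lower, with a median of -0.53. On the recovered reads, edgeR called 51 of the rows lower, against 14.9% of all genes, and DESeq2 57, against 15.7%. The authors' deposited table, from DESeq2, called 57 of 83 lower and 0 higher, including all 51, where 14.7% of its genes were lower.

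**Figure D1:**
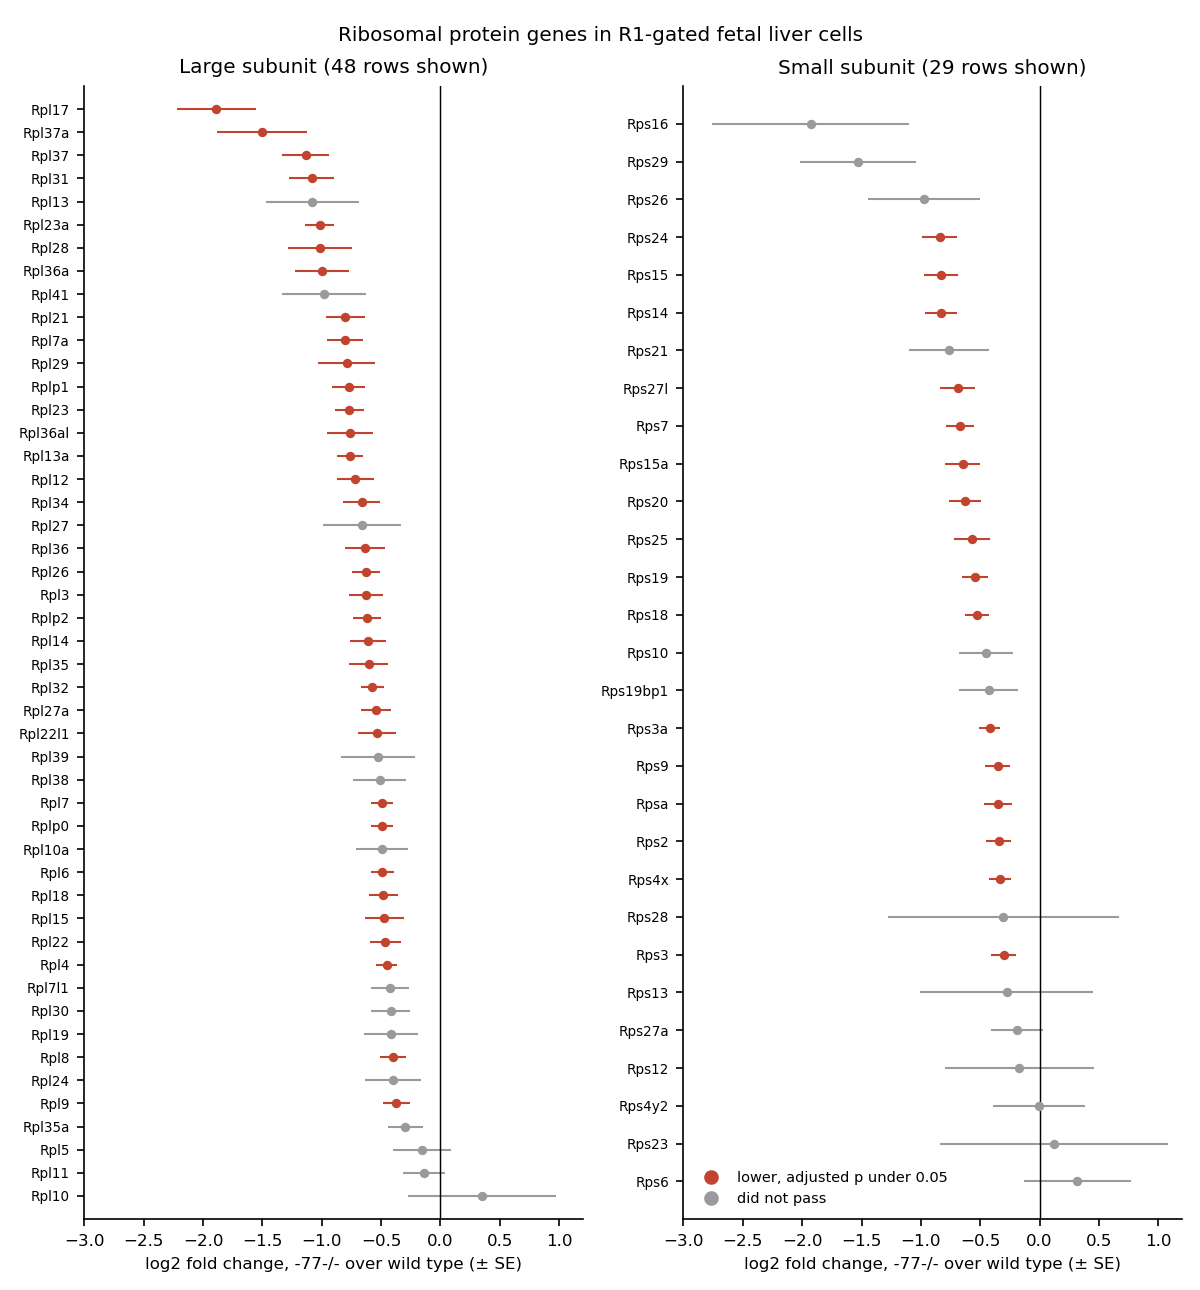
Log2 fold change of 77 of the 82 tested ribosomal protein genes, -77-/- over wild type, with its standard error, for the large subunit (left, 48 rows) and the small subunit (right, 29 rows). Red points passed the test; they number 34 and 16, and 74 of the points lie left of 0.

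The 2 rows that the filter on low values removed were Rpl3l and Rpl39l, copies of Rpl3 and Rpl39 that are known from muscle and testis. Rpl3l had 0, 14.6 and 11.1 in the -77-/- libraries, against 0.938, 8.98 and 0 in wild type, and Rpl39l had 4.07, 4.86 and 0 in the -77-/- libraries, against 0, 0.998 and 3.42 in wild type. A value of 2.56 to 3.42 corresponds to 3 reads, so both were close to the limit of these libraries. Among the rows tested, Rps19bp1 carries the name but encodes a nucleolar protein that binds Rps19, not a subunit of the ribosome, and Rps4y2 has the identifier of a transcribed processed pseudogene in GENCODE vM21. Leaving out these, the paralogue copies and the rows below the filter, 76 rows were left, of which 48 were lower, with a median of -0.54. Rpl24 had 3941, 3414 and 3549 in the -77-/- libraries, against 6136, 5589.8 and 3192 in wild type, and its identifier belongs to the neighbouring gene Zbtb11 in GENCODE vM21, so its row may hold reads of both.

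Counted as reads rather than genes, the ribosomal protein rows took a smaller share of each -77-/- library than of any wild type library. The share was 2.61%, 2.41% and 2.35% in the -77-/- libraries, against 3.06%, 3.36% and 3.24% in wild type. The means were 2.46% ± 0.134 in -77-/- and 3.22% ± 0.152 in wild type (SD, n = 3 each), so the -77-/- mean was 76.4% of wild type. The groups did not overlap, and the two-sided exact permutation test gave p = 0.1, the smallest that 3 against 3 allows. With reads of mitochondrial genes left out of the total, the shares were 2.74% ± 0.181 in -77-/- and 3.65% ± 0.139 in wild type. The share of mitochondrial ribosomal RNA differed as well, at 7.86%, 7.20% and 6.43% in the -77-/- libraries and 9.70%, 7.95% and 7.98% in wild type.

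Both subunits took a smaller share of reads in -77-/-, at 73.7% of the wild type mean for the large subunit and 79.5% for the small subunit. Large subunit rows took 1.34%, 1.25% and 1.25% of reads in the -77-/- libraries, against 1.67%, 1.80% and 1.74% in wild type. Small subunit rows took 1.27%, 1.16% and 1.11% in the -77-/- libraries, against 1.39%, 1.56% and 1.498% in wild type. The ratio of large to small subunit reads was 1.06, 1.07 and 1.13 in the -77-/- libraries, against 1.197, 1.15 and 1.16 in wild type. These ratios did not overlap either (exact permutation p = 0.1, the smallest possible). With the rows named -ps or -rs added, they were 1.162, 1.168 and 1.23429 in the -77-/- libraries, against 1.313, 1.23437 and 1.274 in wild type. On those sums -77-/- library 3 and wild type library 2 were almost equal. By gene, 34 of 49 large subunit rows were lower, with a median of -0.60, and 17 of 33 small subunit rows, with a median of -0.42.

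**Figure D2:**
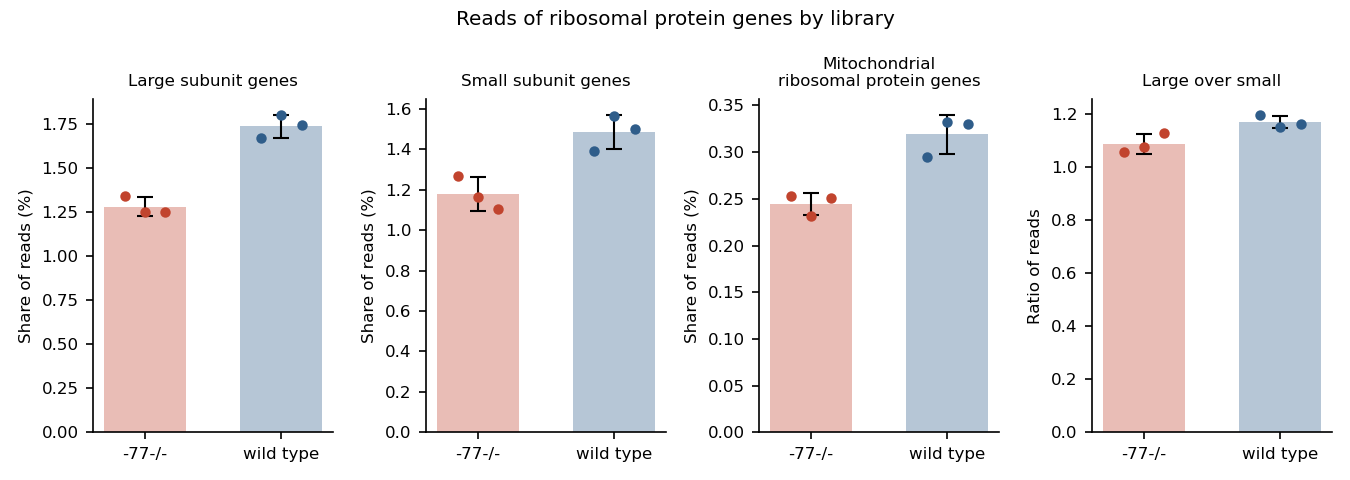
Share of all reads (%) in large subunit, small subunit and mitochondrial ribosomal protein genes, and the ratio of large to small subunit reads, with -77-/- left of wild type in each panel. Bars are means, error bars SD and points the 3 libraries of a genotype; the -77-/- points lie below the wild type points in all 4 panels.

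The acidic stalk of the large subunit, which recruits translation factors, was lower in all 3 of its proteins. Rplp0, the base of the stalk, had 20194, 17677 and 19330.2 in the -77-/- libraries, against 23823, 29289.8 and 27417 in wild type. Rplp1 had 6904, 5988 and 5187 in the -77-/- libraries, against 8549.7, 10227 and 12271 in wild type. Rplp2 had 4943, 4028 and 4269 in the -77-/- libraries, against 7162, 5789 and 7424 in wild type. In each of the 3, every -77-/- library was below every wild type library. Their log2 fold changes were -0.49 ± 0.10, -0.77 ± 0.14 and -0.62 ± 0.12, in that order, with adjusted p of 0.000997, 0.000707 and 0.000944.

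Of 8 proteins that line the exit tunnel of the large subunit or surround its opening, 6 were lower, with a median of -0.62. Rpl23a, a docking site for factors that meet the nascent chain, had 2630.4, 2175 and 2661 in the -77-/- libraries, against 4474, 5206 and 5422 in wild type, so that -77-/- cells held 49.4% of the wild type mean (-1.02 ± 0.12, adjusted p = 1.11e-05). Rpl17 had 103, 155 and 155 in the -77-/- libraries, against 835, 420.1 and 361 in wild type, the most negative fold change among the genes that passed (-1.89 ± 0.33, adjusted p = 0.000441). The wild type values of Rpl17 were uneven, with library 1 at the top, yet the lowest of them was still above all -77-/- values. These values are of its own row, which held 28.3% of its sum with 2 pseudogene rows in -77-/- and 50.6% in wild type. The log2 fold change of that sum was smaller, at -1.17 ± 0.25 (adjusted p = 0.00271). Rpl4, whose extension reaches into the tunnel, had 33622, 28769 and 30867 in the -77-/- libraries, against 41202, 40761 and 45643 in wild type (-0.45 ± 0.09, adjusted p = 0.000851). Rpl31, which stands at the exit, had 462, 366 and 513 in the -77-/- libraries, against 903, 859 and 1070.1 in wild type (-1.09 ± 0.19, adjusted p = 0.000437). Rpl26 and Rpl35 had log2 fold changes of -0.63 and -0.60, with adjusted p of 0.000692 and 0.0127. Rpl19 and Rpl39 did not pass in their own rows, but Rpl19 did with its 3 pseudogene rows added (-0.49 ± 0.12, adjusted p = 0.00386). Rpl19 had 5279, 5081 and 5169.6 in the -77-/- libraries, against 5357, 6038 and 10222 in wild type, which did not overlap, with 1 wild type library far above the others (adjusted p = 0.215). Rpl39 had 2352, 1233 and 1467 in the -77-/- libraries, against 2646, 2939 and 1639 in wild type, which overlapped (adjusted p = 0.257).

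Neither of the 2 proteins of the 5S particle, which joins the large subunit as a unit, passed the test, and their median was -0.15. Rpl5 had 623, 1189 and 1188 in the -77-/- libraries, against 1095, 1233 and 900.3 in wild type (-0.15 ± 0.24, adjusted p = 0.659). Rpl11 had 11786, 10584 and 11610.4 in the -77-/- libraries, against 9457, 12485 and 16436 in wild type (-0.14 ± 0.18, adjusted p = 0.583). The genotypes overlapped in both, and in Rpl11 the wild type values lay on each side of all -77-/- values. All of the 50-base windows of both coding sequences also occur in other genes, all of them pseudogenes, so their reads could have been divided among rows. With its 1 pseudogene row added, Rpl5 had a log2 fold change of -0.04 (adjusted p = 0.90). That sum took in only the row named after Rpl5. The gene shared windows with 14 pseudogenes, so the sum need not hold all its reads.

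**Figure D3:**
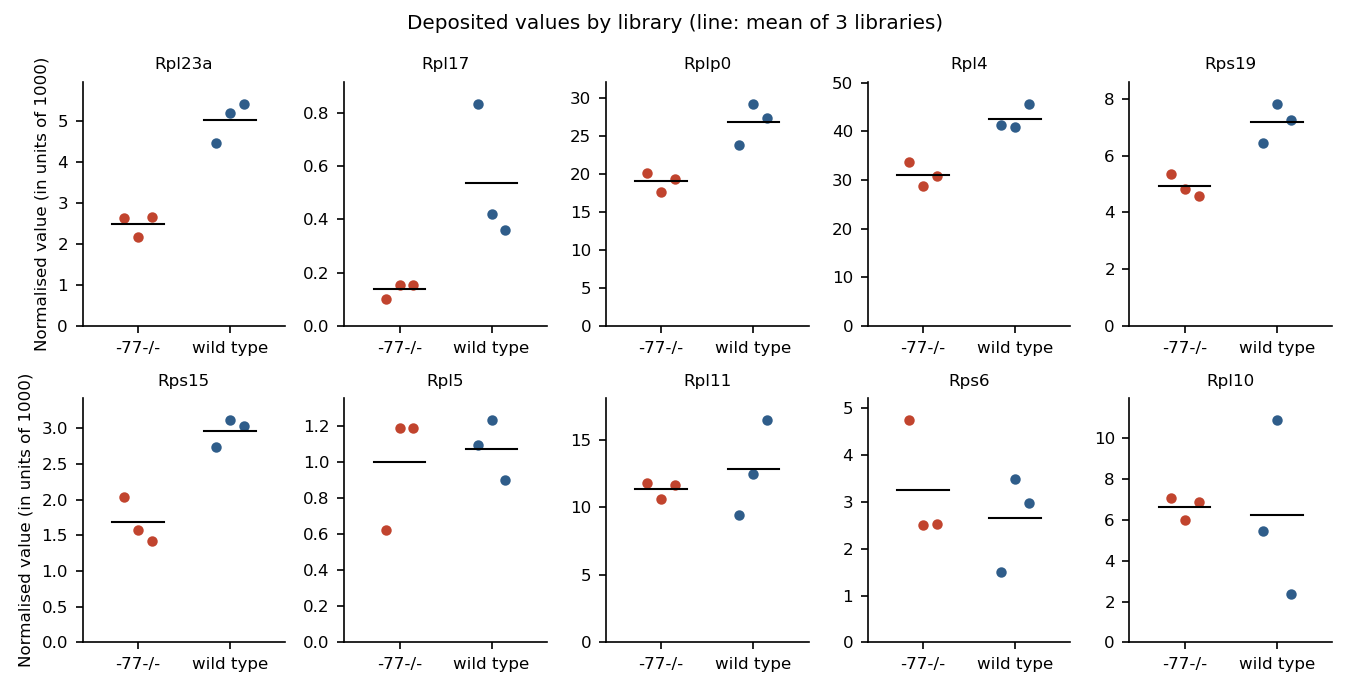
Normalised values (in units of 1000, linear axis from 0) of 10 ribosomal protein genes, with the 3 -77-/- libraries left of the 3 wild type libraries and a line at each mean. The genotypes separate in Rpl23a, Rpl17, Rplp0, Rpl4, Rps19 and Rps15 and overlap in Rpl5, Rpl11, Rps6 and Rpl10.

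Genes that cause Diamond-Blackfan anaemia in people were measured in 18 rows, and 9 of them were lower, with a median of -0.57. Rps19, the gene most often affected in patients and needed for maturation of the small subunit, had 5339, 4813 and 4585 in the -77-/- libraries, against 6434, 7826 and 7245 in wild type. Its log2 fold change was -0.54 ± 0.11, with an adjusted p of 0.00114. Rps24, which acts in processing of the small subunit RNA, had 5223, 4171 and 3739 in the -77-/- libraries, against 9646, 7081 and 6874 in wild type (-0.84 ± 0.15, adjusted p = 0.000928). Rps7 had 7021, 5829 and 5829 in the -77-/- libraries, against 8507, 9977 and 11394 in wild type (-0.67 ± 0.12, adjusted p = 0.000455). For these 3 genes the genotypes did not overlap. Rpl31, Rpl26, Rps15a, Rpl18, Rpl35 and Rpl15 were the others that passed, with log2 fold changes between -1.09 and -0.47. Rpl15 was at the threshold, with an adjusted p of 0.0495, and had 3922, 2721 and 2924 in the -77-/- libraries, against 3571, 5364 and 4349 in wild type, which overlapped. The other 9 did not pass, among them Rps10, Rps26, Rps28, Rps29, Rpl5, Rpl11, Rpl27 and Rpl35a. Among these, Rps29 had 336, 486 and 227 in the -77-/- libraries, against 1450.4, 1281 and 485 in wild type, with wild type library 3 beside the highest -77-/- library (-1.53 ± 0.49, adjusted p = 0.0563). Its call depended on the method: it was lower under 4 of 17 alternatives. In the authors' DESeq2 results it was lower too (-1.62, adjusted p = 4.11e-05). Rps26 had 1567, 872 and 724 in the -77-/- libraries, against 2221, 2922 and 1154 in wild type (-0.97 ± 0.47, adjusted p = 0.195). Rps28 had 59.99, 160.4 and 87.9 in the -77-/- libraries, against 541, 82.8 and 35.3 in wild type, the widest relative spread in wild type of all rows tested, and no direction can be read from it (-0.31 ± 0.97, adjusted p = 0.84). The fold changes of Rps10, Rpl27 and Rpl35a were -0.45, -0.66 and -0.30. The own row of Rpl27 held 22.8% of its sum with pseudogene rows in -77-/- and 19.8% in wild type. With pseudogene rows added, Rpl27 (-0.89 ± 0.13, adjusted p = 8.61e-05) and Rpl35a (-0.41 ± 0.12, adjusted p = 0.0167) were lower. Rps26 and Rpl5 still did not pass (adjusted p of 0.242 and 0.898).

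Other genes with large changes came from both subunits. Rpl37, a small zinc finger protein of the large subunit, had 657, 508 and 452 in the -77-/- libraries, against 1071, 1497 and 997 in wild type (-1.13 ± 0.20, adjusted p = 0.000437). Rpl37a had 336, 184 and 193 in the -77-/- libraries, against 992, 353 and 782 in wild type (-1.50 ± 0.38, adjusted p = 0.0114). Rps15, which is needed for export of the small subunit from the nucleus, had 2039.7, 1578 and 1426 in the -77-/- libraries, against 2738, 3113 and 3031 in wild type (-0.83 ± 0.14, adjusted p = 0.000308). Rps14, lost with part of a chromosome arm in a human myelodysplastic syndrome, had 4911, 3624 and 3629 in the -77-/- libraries, against 6613, 8256 and 6619.9 in wild type (-0.83 ± 0.13, adjusted p = 0.000225). In all 4, no -77-/- library reached the lowest wild type library. Rpl28 had 461, 248 and 383 in the -77-/- libraries, against 600.4, 589.7 and 1021 in wild type, Rpl7a had 2792, 2911 and 3469.7 in the -77-/- libraries, against 6477, 5568 and 4138 in wild type, and Rpl21 had 1693, 1463 and 1717 in the -77-/- libraries, against 3629.8, 2175 and 2862 in wild type. Their log2 fold changes were -1.01, -0.80 and -0.80, with adjusted p of 0.00985, 0.00121 and 0.00168. The own row of Rpl28 held 8.65% of its sum with 2 pseudogene rows in -77-/- and 13.8% in wild type. That sum was at -0.31 ± 0.17 and did not pass (adjusted p = 0.179). The sums of Rpl7a and Rpl21 were still lower, at -0.81 and -0.77.

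The 5 rows with the highest mean values were Rpl4, Rps2, Rps3, Rps4x and Rplp0, all lower in -77-/- and all with fold changes closer to 0 than the median of -0.53. Rps2, at the entry of the mRNA channel, had 32884, 29364 and 29856 in the -77-/- libraries, against 32854, 39348 and 45767 in wild type (-0.35 ± 0.11, adjusted p = 0.0233). Rps3, its neighbour in the small subunit, had 30696, 28005 and 29792 in the -77-/- libraries, against 30599.9, 37256 and 42242 in wild type (-0.30 ± 0.11, adjusted p = 0.0383). In both, -77-/- library 1 was just above wild type library 1. Per kilobase of coding sequence, Rps3 stood at 40463 in -77-/- and 50342 in wild type, Rps2 at 34927 in -77-/- and 44736 in wild type, and Rpl4 at 24730.2 in -77-/- and 33839 in wild type. At the low end of the rows tested, Rps28 stood at 497 in -77-/- and 1062 in wild type per kilobase, and Rps16 at 337 in -77-/- and 802 in wild type. Rps4y2 had 122, 99.2 and 178 in the -77-/- libraries, against 157, 131 and 106 in wild type, with a log2 fold change of 0.00 ± 0.39.

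The X chromosome carries 4 of the genes, and 2 were lower. Rps4x had 24839.9, 21228 and 21139 in the -77-/- libraries, against 26128, 28654 and 29657 in wild type (-0.33 ± 0.09, adjusted p = 0.0114), and Rpl36a had 2093, 1787 and 1359 in the -77-/- libraries, against 4056, 4071 and 2458 in wild type (-0.999 ± 0.23, adjusted p = 0.00953). Xist, the RNA that silences 1 X chromosome in females, stood at 41877 in wild type library 2 and between 28.5 and 63.2 in the other 5 libraries. In that library Rps4x was the middle of the 3 wild type values, and Rpl36a was close to library 1. Paralogue copies passed the filter in 4 cases, and 3 were lower. Rps27l had 1520.1, 1435 and 1486 in the -77-/- libraries, against 2304, 1978 and 2995 in wild type (-0.69 ± 0.15, adjusted p = 0.00208). Rpl36al had 939.5, 769 and 779 in the -77-/- libraries, against 1419, 1867 and 1034 in wild type (-0.76 ± 0.19, adjusted p = 0.00741). In both, every -77-/- library lay below every wild type library. Rpl22l1, whose protein and that of Rpl22 have opposed roles in blood stem cells and lymphocytes, had 904, 868 and 793 in the -77-/- libraries, against 1390.4, 1358 and 1005 in wild type (-0.54 ± 0.16, adjusted p = 0.0197). Its parent Rpl22 had 4831, 3781 and 3357 in the -77-/- libraries, against 5297, 6097 and 4988 in wild type (-0.46 ± 0.13, adjusted p = 0.0141). Neither Rpl22l1 nor Rpl22 overlapped. The parent genes Rpl3 and Rpl7 were lower too, with log2 fold changes of -0.63 and -0.49. Rpl7l1 had 1160.1, 1399.9 and 1689.6 in the -77-/- libraries, against 1595, 1933 and 2155 in wild type, which overlapped (adjusted p = 0.0545).

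Only 3 of the 82 rows had a positive fold change, and none of the 3 passed. They were Rpl10, Rps6 and Rps23; Rps6 and Rps23, with Rps12, Rps13 and Rpl13a below, are named because of their values. Rps6, the substrate of the kinase S6K downstream of mTOR, had 4743, 2513 and 2533 in the -77-/- libraries, against 1503, 3484 and 2978 in wild type (0.32 ± 0.45, adjusted p = 0.642). Rps23, part of the decoding site, had 663, 415 and 314 in the -77-/- libraries, against 619, 979 and 111 in wild type (0.12 ± 0.96, adjusted p = 0.939). The genotypes overlapped in both, and the mean of Rps23 over libraries was lower in -77-/- although its log2 fold change was positive. Rpl10, the last protein joined to the large subunit, had 7047, 6011 and 6882 in the -77-/- libraries, against 5444, 10879 and 2367 in wild type (0.35 ± 0.62, adjusted p = 0.717). In Rpl10 the wild type values spanned more than the difference between the means.

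Several ribosomal protein genes had rows named as their pseudogenes in the table, and the division of reads between gene and pseudogene rows varied from library to library. Rpl10-ps1 held 2349.8, 2399 and 2399.9 in the -77-/- libraries, against 4873, 794 and 5960.0 in wild type, and its wild type values were low where Rpl10 was high. With its 3 pseudogene rows added, Rpl10 had 9397, 8410.0 and 9288 in the -77-/- libraries, against 10358, 11688 and 9577 in wild type, a log2 fold change of -0.22 ± 0.10 (adjusted p = 0.107). Rps12 had 1128, 992 and 596 in the -77-/- libraries, against 593, 2259 and 709 in wild type in its own row, which was 16.8% of its summed value in -77-/- and 12.5% in wild type. Rps12 with its 4 pseudogene rows had 6366, 5328 and 4509 in the -77-/- libraries, against 10238, 9696 and 8469 in wild type, and the log2 fold change of this sum was -0.82 ± 0.12 (adjusted p = 0.000105), beside -0.17 for its own row. Rps16 had 344, 66.1 and 32.4 in the -77-/- libraries, against 303, 416 and 335 in wild type in its own row (-1.93 ± 0.83, adjusted p = 0.133) and 3167, 2322 and 2399 in the -77-/- libraries, against 5423, 4571 and 3481 in wild type with Rps16-ps2 added (-0.76 ± 0.17, adjusted p = 0.00361). The row of Rps13 and that of Rps13-ps1 were uneven in the same way, and their sum still overlapped (1708, 809.8 and 844 in the -77-/- libraries, against 402, 1277 and 2304 in wild type). Rpl13a had 5997, 5122 and 4609 in the -77-/- libraries, against 9360, 8485 and 8659 in wild type (-0.76 ± 0.11, adjusted p = 7.68e-05). It had no row named as its pseudogene, but 97.5% of its 50-base windows occurred in other genes. Such rows were found for 49 genes, and with these summed, 56 of the 82 ribosomal protein rows were lower, where 15.4% of all genes were. Among these, 7 were newly lower, including Rpl19, Rpl27 and Rpl35a. Rpl28 and Rpsa no longer passed, with adjusted p of 0.179 and 0.257. Only rows named after the gene were summed. Rpl17 shared 50-base windows with 50 pseudogenes and Rpl21 with 81, while 2 and 8 rows were summed. A sum thus need not hold all reads of a gene.

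**Figure D4:**
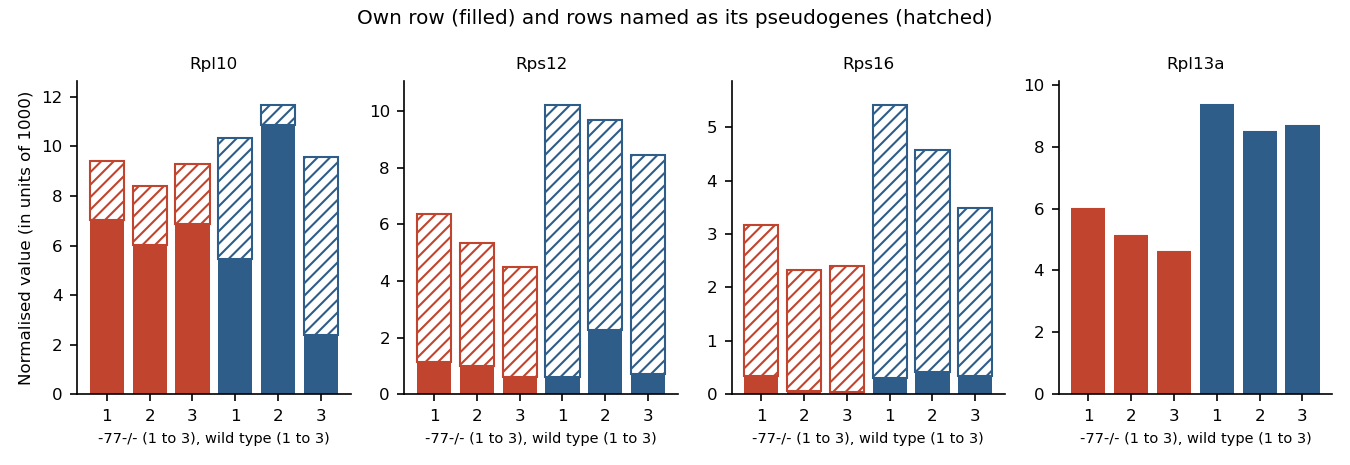
Normalised values (in units of 1000) of Rpl10, Rps12, Rps16 and Rpl13a by library, -77-/- libraries 1 to 3 left of wild type libraries 1 to 3, with the gene's own row filled and rows named as its pseudogenes hatched. The sums of Rps12 and Rps16 are lower in every -77-/- library than in any wild type library, and the split of Rpl10 differs between wild type libraries. Rpl13a has no such row, but 97.5% of its 50-base windows occur in other genes.

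Genes with little shared sequence had a smaller spread between libraries. In 13 rows tested, under 50% of the 50-base windows of the coding sequence occurred in another gene, and 9 of these were lower, with a median of -0.43. Rpl8, with 8.73% of windows shared, had 11842, 10029 and 10642 in the -77-/- libraries, against 12645, 13877 and 16548 in wild type (-0.40 ± 0.11, adjusted p = 0.0106). Rpl32, with 37.6%, had 7385, 6404 and 6394 in the -77-/- libraries, against 9846, 9578 and 10579.9 in wild type (-0.57 ± 0.10, adjusted p = 0.00034). Neither of these genes, named for their low overlap with other genes, had overlapping genotypes. Both were also lower under all 17 alternatives. In the 29 rows whose windows were all shared, 11 were lower, with a median of -0.51. The median coefficient of variation between libraries was 20.2% in -77-/- and 29.0% in wild type in those 29 rows, against 8.51% in -77-/- and 11.5% in wild type in the 13.

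Among the genes with a start window, 26 had a run of at least 8 C and T bases somewhere in it, not always at the start. Of these, 18 were lower, with a median of -0.57. Of 34 tested with a shorter run, 19 were lower, with a median of -0.49. Of the genes printed above, Rpl27a had 1613, 1544 and 1608 in the -77-/- libraries, against 2390.5, 2550.4 and 2033 in wild type (-0.54 ± 0.13, adjusted p = 0.00374), and Rps18 had 10645, 9092 and 8526 in the -77-/- libraries, against 13637, 13583 and 13297 in wild type (-0.53 ± 0.10, adjusted p = 0.00073). Rps10, with a run of 13 bases, had 2999, 2387 and 1638 in the -77-/- libraries, against 3119, 3743 and 2558 in wild type, which overlapped, and Rps15, with the short run, did not overlap, as given before. Split by coding length, the ribosomal protein genes of up to 399 nt had a median of -0.65, those of 405 to 576 nt -0.54 and those of 582 to 1257 nt -0.42. Other genes in the same length ranges had medians of -0.16, -0.06 and 0.06, and longer genes 0.09. The part of length in the result was not tested.

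The remaining translation machinery was described by lists. Other mRNAs with a TOP motif, which encode elongation and initiation factors and related proteins, were lower in 14 of 20 and higher in 0, with a median of -0.42. Npm1, a nucleolar chaperone, had 42632, 34933 and 40076 in the -77-/- libraries, against 68217, 69669 and 61337 in wild type (-0.76 ± 0.09, adjusted p = 1.08e-05). Its genotypes did not overlap. Eif3e and Eif4b, of the initiation machinery, had log2 fold changes of -0.66 and -0.55, and Eef1b2, an elongation factor, had -0.48. Without -77-/- library 2, or without wild type library 2, 9 of the 20 were lower. Factors of ribosome assembly and chaperones of ribosomal proteins were lower in 20 of 26 and higher in 0, with a median of -0.70. Bccip, a chaperone of Rpl23, had 753, 830.2 and 831 in the -77-/- libraries, against 1509.5, 1913 and 1648 in wild type (-1.06 ± 0.15, adjusted p = 4.67e-05). Nop56, a core protein of the box C/D particles that modify ribosomal RNA, had 6155, 4908 and 6056 in the -77-/- libraries, against 9217, 9759 and 10301 in wild type (-0.78 ± 0.11, adjusted p = 5.09e-05). In Bccip and Nop56 every -77-/- library was below every wild type library. Mdn1, which remodels the precursor of the large subunit, and Nmd3, its export adapter, had -0.70 and -0.96.

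Ribosome rescue factors, which release stalled ribosomes, were lower in 6 of 9 and higher in 0, with a median of -0.68. Hbs1l had 1805, 1679 and 1721 in the -77-/- libraries, against 2842, 2759 and 2745 in wild type (-0.68 ± 0.11, adjusted p = 0.000259), and Zfp598, which marks collided ribosomes with ubiquitin, had 375, 341 and 387 in the -77-/- libraries, against 768, 827 and 785 in wild type (-1.11 ± 0.18, adjusted p = 0.000265). Neither gene overlapped. Ascc3 and Gtpbp1 had log2 fold changes of -0.96 and -0.66. Mitochondrial ribosomal proteins were lower in 30 of 77 and higher in 0, with a median of -0.52, and took 0.245% ± 0.0117 of reads in -77-/- and 0.319% ± 0.0211 in wild type. Mrpl52 had 59.99, 24.3 and 40.1 in the -77-/- libraries, against 497, 273 and 270.1 in wild type (-3.06 ± 0.45, adjusted p = 9.31e-05), and Mrps18b, Mrps28 and Mrpl49 had -1.12, -1.09 and -1.06. The count of lower mitochondrial ribosomal proteins was 18 without -77-/- library 2 and 16 without wild type library 2.

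Regulators were described in the same way. Of 14 genes of the mTOR pathway and the control of TOP mRNAs, 3 (21.4%) were lower and 0 higher, beside 15.2% lower and 16.9% higher over all genes, so the lower share was near that of all genes. Larp4, which binds poly(A) tails and stabilises mRNAs, had 3837, 3161 and 4154 in the -77-/- libraries, against 5413, 6069.7 and 4464 in wild type (-0.51 ± 0.13, adjusted p = 0.00769). Myc, which drives transcription of ribosome genes, had 463, 669.8 and 741 in the -77-/- libraries, against 902, 1004 and 1226 in wild type (-0.76 ± 0.20, adjusted p = 0.00878), and Mlst8, a subunit of both mTOR complexes, had -0.71 (adjusted p = 0.0477). The call of Mlst8 was lost whichever library was left out (adjusted p between 0.0592 and 0.122) and that of Larp4 without wild type library 2 (adjusted p = 0.0512), when 1 of the 14 was lower. Of 13 tested genes of p53 and its targets, 3 were higher and 3 lower (23.1% each), again near the shares of all genes. Cdkn1a, an inhibitor of the cell cycle, had 403, 432 and 425 in the -77-/- libraries, against 77.9, 81.8 and 50.1 in wild type (2.60 ± 0.33, adjusted p = 2.21e-05). Pmaip1, which promotes apoptosis, had 3088, 2753 and 2643 in the -77-/- libraries, against 468, 317 and 374 in wild type (2.88 ± 0.17, adjusted p = 7.95e-09), and Trp53inp1 had 2.81. In all 3 the -77-/- libraries lay above the wild type libraries. Trp53 itself had 1244, 858 and 1106 in the -77-/- libraries, against 1668, 1664 and 2303 in wild type (-0.81 ± 0.17, adjusted p = 0.00185). Aen, a nuclease induced in apoptosis, had 612, 503 and 512 in the -77-/- libraries, against 877, 1101 and 1309 in wild type (adjusted p = 0.000679), and Sesn2 had a log2 fold change of -1.70. The -77-/- libraries of Trp53, Aen and Sesn2 lay below those of wild type.

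**Figure D5:**
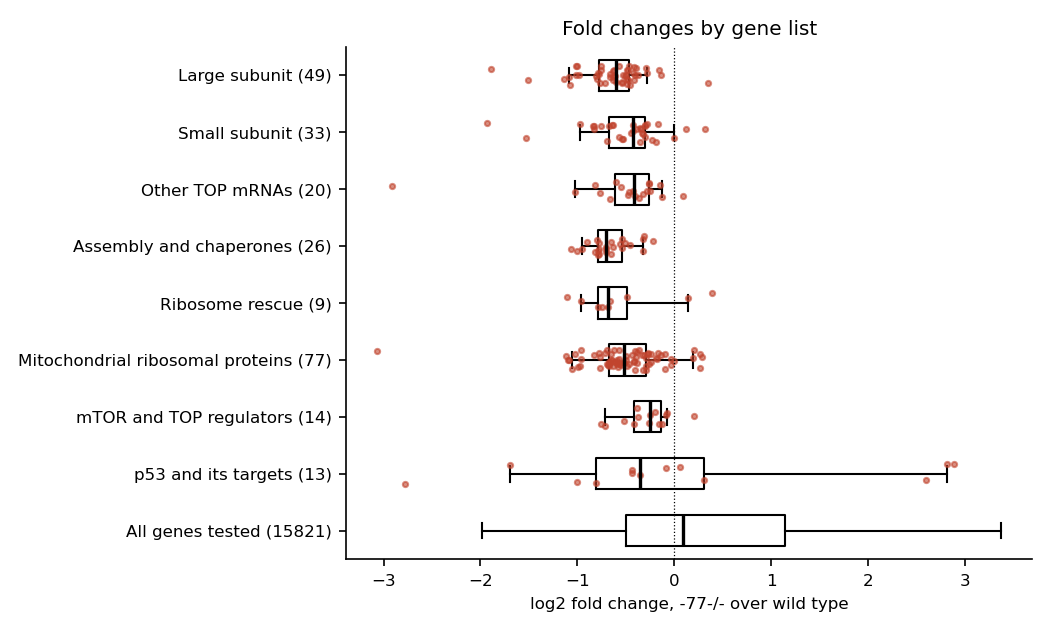
Log2 fold change, -77-/- over wild type, by gene list, with the number tested in brackets; boxes span the quartiles, the heavy line is the median, whiskers reach the 5th and 95th percentiles and points are genes. The medians of the large subunit (-0.60), small subunit (-0.42), assembly (-0.70) and mitochondrial ribosomal protein (-0.52) lists lie left of the median of all genes (0.10). So do those of the other TOP mRNA (-0.42), rescue (-0.68), mTOR and TOP regulator (-0.25) and p53 (-0.35) lists.

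The 3 libraries of a genotype were not interchangeable. Library 1 of -77-/- was the highest of its genotype in 67 of the 82 rows. Measured against the wild type mean, the median log2 difference of the rows was -0.40, -0.60 and -0.64 in -77-/- libraries 1, 2 and 3. Library 1 also had the highest erythroid marker sum of the 3, at 7736, beside 3206 and 4503 in libraries 2 and 3. The part of that difference in the ribosomal protein values was not tested. Without -77-/- library 1, 2 or 3, 56, 37 and 38 rows were lower, and without wild type library 1, 2 or 3, 52, 42 and 48, beside 51 with all libraries. The median was -0.62 without -77-/- library 1. The count was smallest without -77-/- library 2. Shares over all genes were not counted for these fits, so whether the counts moved with those shares was not tested. Without -77-/- library 2, 14 rows no longer passed, with adjusted p between 0.053 and 0.184, among them Rpl3, Rpl15, Rpl22, Rpl28, Rpl35, Rpl36a, Rpl37a, Rps2 and Rps3. Without -77-/- library 3, 14 did not, between 0.0514 and 0.198, among them Rpl15, Rpl18, Rpl22, Rpl22l1, Rpl35, Rpl37a, Rps2, Rps3 and Rps4x. Without wild type library 2, 11 calls were lost, between 0.0509 and 0.167, among them Rpl15, Rpl22, Rpl22l1, Rpl35, Rps2, Rps3 and Rps4x, and without wild type library 3, 9, between 0.0511 and 0.167, among them Rpl15, Rpl35, Rpl37a, Rps2 and Rps3. The calls of Rpl15, Rpl35, Rps2 and Rps3 were thus lost in each of these 4 cases. Without -77-/- library 1 that of Rps3 was lost (adjusted p = 0.0732), and without wild type library 1, 4 were, Rpl22l1 among them (adjusted p = 0.0886). Genes that passed newly, all lower, when a library was left out included Rpl39, Rps10 and Rps16 (-77-/- library 1), Rpl7l1 (-77-/- library 3 or wild type library 1), Rpl19 (wild type library 1) and Rps26 and Rps29 (wild type library 3).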

How the data were processed

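RNA-seq of sorted fetal liver cells was compared between 3 -77-/- and 3 wild type libraries. The deposited signal in each library column is a count divided by 1 size factor by the authors; 100% of values were whole multiples of 1 step (within 0.01 of a read), so reads could be recovered. The log2 fold changes in the authors' deposited table came from DESeq2. Per the submitters' processing notes, Bowtie, STAR 2.5 and RSEM 1.2.31 were used with mm9; roles, annotation and strand setting are not given in the sources used here. From 19444 rows, 8 with cells moved sideways were left out. limma 3.58.1 in R 4.3.3 (trend and robust empirical Bayes) was run on log2(value + 1). Read shares and ratios were compared by exact permutation. Alternatives were edgeR 4.0.16, DESeq2 1.42.0 and limma-voom on recovered reads, pseudocounts of 0.1 and 10, other filters and scalings, each library left out, and, chosen after seeing the data, pseudogene rows summed into their genes. Genes named were those in role lists, the 12 largest changes that passed, the 5 highest and 5 lowest rows and those below the filter, and up to 4 per related list. Members and lists were chosen with earlier results of these data known. Coding sequences came from GENCODE vM21. Some members enter every count but are not named or reported singly here.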

Additional observations from a re-analysis of the deposited data

How the results depend on the processing

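The number of ribosomal protein genes lower in -77-/- was 51 with edgeR (background 14.9%), 57 with DESeq2 (15.7%) and 51 with limma-voom, between 46 and 57 over the other pseudocounts, filters and scalings, and 37 to 56 with 1 library left out, the smallest without -77-/- replicate 2; 0 were higher in any of them. Shares over all genes were not counted for limma-voom, for the other pseudocounts, filters and scalings, or with 1 library left out. The median fold change ran from -0.63, when centred on the median of all genes (which stood at 0.10), to -0.47, when scaled to total reads without mitochondrial genes. The difference in share of reads was -0.76 percentage points and ran from -0.84 to -0.69 with 1 library left out; that of the large to small ratio was -0.08, from -0.11 to -0.07. Across 48 named members and 17 alternatives each, 741 of 816 values kept their direction and side of the threshold, 24 passed newly, 37 no longer passed and 14 changed sign. None of the 14 had passed. With pseudogene rows summed, Rpl10 was at -0.22. With 1 library left out, Rpl10 ran from -0.21 (without wild type replicate 3) to 0.89, Rpl11 from -0.34 to 0.06 (without wild type replicate 3), Rpl5 from -0.31 to 0.16 (without -77-/- replicate 1), Rps28 from -1.16 to 0.79 (without wild type replicate 1) and Rps4y2 from -0.23 to 0.19 (without -77-/- replicate 2). Rps4y2 was at 0.0164 with edgeR, 0.0236 with DESeq2, 0.00246 with limma-voom and 0.0589 with total reads without mitochondrial genes. Besides, Rpl15 was lost with a pseudocount of 0.1 (adjusted p = 0.056) and with Rps3 under total reads without mitochondrial genes (0.065 and 0.0583), and Rpl37a with limma-voom (0.0635). The causes were not tested. No paired analysis was possible because the labels give no replicate numbers that the genotypes share. With 3 libraries a genotype, no permutation p can fall below 0.1. Reads of 50 nt from sequence that several rows share cannot be assigned to a single row with certainty. Whether counting used strand is not given.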
